A study of Homo sapiens with 6 samples.

Results

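The DLX and MSX homeobox genes DLX1 to DLX6, MSX1 and MSX2 were examined in human breast cancer cells exposed to activin B. They were chosen by gene name: every probe set, that is every group of oligonucleotides summarised into 1 value, whose annotation gave one of these symbols alone was taken. This gave 16 probe sets of 8 genes, of 54613 probe sets and 19775 genes on the array. The family was put forward because DLX2 and DLX1 were already known to be higher with activin B on these same arrays. The changes of its members are therefore given as a description, and no test of them is used as evidence.

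SUM-LM1 is a line derived from the SUM159 breast cancer line and selected for growth in the lung, so all 6 samples come from 1 cell line. All cells were kept for 6 h in ultra-low attachment dishes in HuMEC medium with 0.1% BSA. In the activin B group (n = 3) the medium held 50 ng/ml of the recombinant protein, and in the vehicle group (n = 3) it held the carrier alone. The titles call the replicates biological without saying whether they were separate cultures, so errors measure the spread between these samples, which may be partly technical.

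DLX proteins are transcription factors related to the fly gene Distal-less. In vertebrates the DLX genes lie in neighboring pairs, DLX1 with DLX2, DLX3 with DLX4 and DLX5 with DLX6, and each pair shares regulatory DNA. They are best known from the jaw, tooth, limb, bone, placenta and the inhibitory neurons of the forebrain. MSX1 and MSX2 are related homeodomain factors that mostly repress transcription, and several genes of both families are induced by BMPs through SMAD1 and SMAD5 in embryonic tissue. Activin B is a ligand of the same superfamily.

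The labelled cell type was compared with marker genes. KRT18 and KRT14, keratins of breast epithelium, lay at a log2 signal of 12.09 and 11.58 in vehicle, and VIM, the mesenchymal intermediate filament, at 13.89. EPCAM, CDH1 and KRT19, other epithelial markers, lay under the array medians at 6.20, 6.27 and 6.43. Of the fibroblast markers, COL1A1, PDGFRA and DCN lay at 11.44, 10.30 and 8.11 in vehicle, and DPT and LUM at 6.47 and 6.26. PECAM1, at 7.84, was the 1 endothelial marker of 6 above the median signal of all probe sets. Bright markers were thus not confined to breast epithelium. By limma no gene was called higher or lower among 7 measured epithelial, 3 receptor status, 4 mesenchymal, 6 endothelial and 5 leukocyte markers. Nor was any called among 5 fibroblast, 3 osteoblast, 4 inhibitory neuron and 3 melanocyte markers. Of all genes, 0.101% were called higher and 0.0910% lower. Of these 40 markers, 5 had an unadjusted p under 0.05 by limma, against 621 higher and 544 lower of all 19775 genes. KRT5 and PECAM1 were lower, with log2 changes of -0.21 and -0.19. EPCAM, CD3E and COL1A1 were higher, with 0.16, 0.20 and 0.20. Activin B replicate 3 stood apart on the first principal component (29.5% of the variance), at 21.7 against -10.6 to 5.70 for the other arrays.

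Of the 16 probe sets, 2 were called higher with activin B, 1 of DLX2 and 1 of DLX1, and 0 were called lower. Called means an adjusted p under 0.05 by limma over all probe sets, a rule that called 0.0732% of all probe sets higher and 0.0476% lower. At an unadjusted p under 0.05, 5 of the 16 were higher and 0 lower, against 2.81% and 2.47% of all probe sets. In 6 of the 16 every activin B array lay above every vehicle array, and in 0 below, against 4.91% and 4.89% of all probe sets. Since the family was proposed from this contrast, nothing is read from these shares. The 6 sets were both of DLX1, both of DLX2 and 2 of the 3 of MSX2. In bulk samples such a change may be more transcript per cell or more cells that hold it, and these cannot be told apart.

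**Figure D1:**
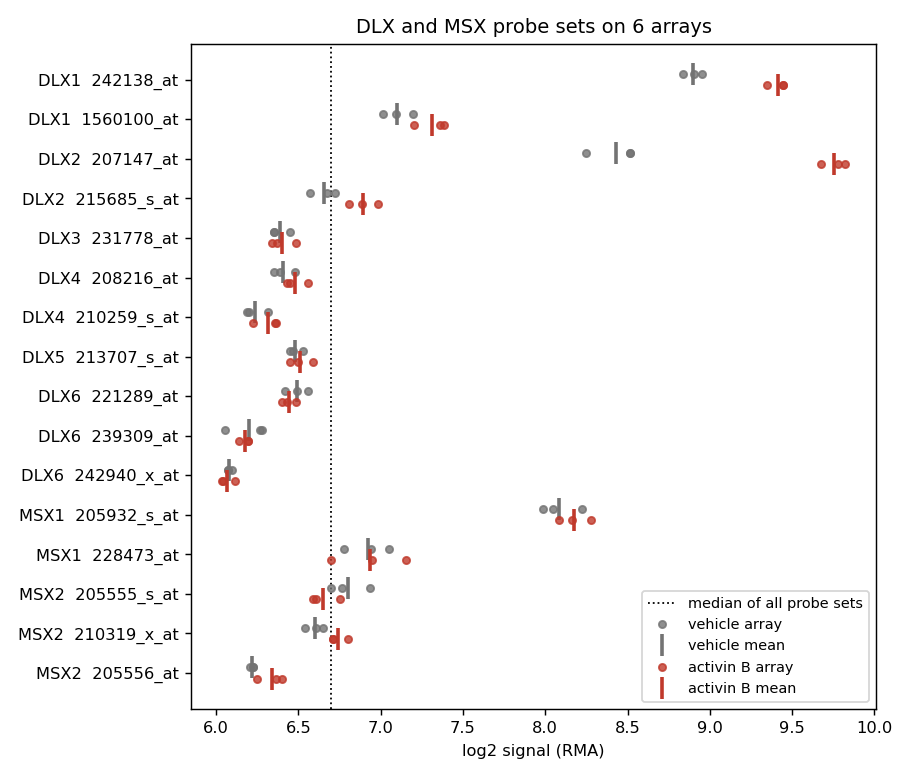
Log2 signal (horizontal axis, RMA) of each DLX and MSX probe set (vertical axis) on the 3 vehicle (grey) and 3 activin B (red) arrays, with group means as vertical bars and the median of all probe sets as a dotted line. The brightest sets of DLX2 and DLX1 separate the groups, whereas all 7 sets of DLX3 to DLX6 lie between 6.04 and 6.59, left of the dotted line.

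DLX2 encodes a factor required for inhibitory neurons and for the upper jaw, and it showed the largest change of the family. Its brighter probe set (207147_at) read 8.25, 8.52 and 8.52 on the vehicle arrays and 9.78, 9.68 and 9.82 on the activin B arrays, in log2 signal. The groups were far apart, since the lowest activin B value exceeded the highest vehicle value by 1.16. The group means were 8.43 ± 0.16 and 9.76 ± 0.08 (SD, n = 3), a log2 change of 1.33 ± 0.08 (SE) or 2.51-fold, with a 95% interval from 2.24-fold to 2.83-fold. This was the 4th largest rise of all probe sets on the array.

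The other DLX2 probe set (215685_s_at) was dim and moved far less. It read 6.57, 6.67 and 6.72 in vehicle and 6.98, 6.81 and 6.89 in activin B. The groups did not overlap, with a gap of 0.08, and the log2 change was 0.24 ± 0.07 (SE), or 1.18-fold. Both sets thus read DLX2 as higher, but their log2 changes differed by 1.09. This dimmer set was not called. Its suffix marks probes that can bind more than 1 transcript, and the part of this in the smaller change was not tested.

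DLX1 lies beside DLX2 and acts with it in the same neurons. Its brighter set (242138_at) read 8.84, 8.91 and 8.95 in vehicle and 9.44, 9.45 and 9.35 in activin B. All 3 activin B arrays were higher, by at least 0.39, and the spread within each group was small. The means were 8.90 ± 0.06 and 9.41 ± 0.06 (SD, n = 3), a log2 change of 0.51 ± 0.06 (SE). In linear terms DLX1 was 1.43-fold higher, with a 95% interval from 1.30-fold to 1.57-fold.

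The dimmer DLX1 set (1560100_at) read 7.09, 7.20 and 7.02 in vehicle and 7.38, 7.20 and 7.36 in activin B. Its groups touched, since the lowest activin B array exceeded the highest vehicle array by only 0.0065. The log2 change was 0.21 ± 0.07 (SE), or 1.16-fold, and the set was not called. As with DLX2, the brighter set of the gene gave the larger change, here by 0.30 on the log2 scale.

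Between the brighter sets, that of DLX2 changed more than that of DLX1. The log2 signal of DLX2 minus that of DLX1 was -0.59, -0.39 and -0.44 on the vehicle arrays and 0.33, 0.23 and 0.48 on the activin B arrays. The absolute values mix the response of different probes and carry no meaning as levels, but their shift by 0.82 is the difference between the log2 changes of these sets. It exceeded the spread within groups, with an SD (n = 3) of 0.10 among vehicle and 0.12 among activin B arrays. The dimmer sets showed no such gap, with log2 changes of 0.24 for DLX2 and 0.21 for DLX1, and the sets of DLX2 differed from each other by more than 0.82, so no difference between the genes is given.

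**Figure D2:**
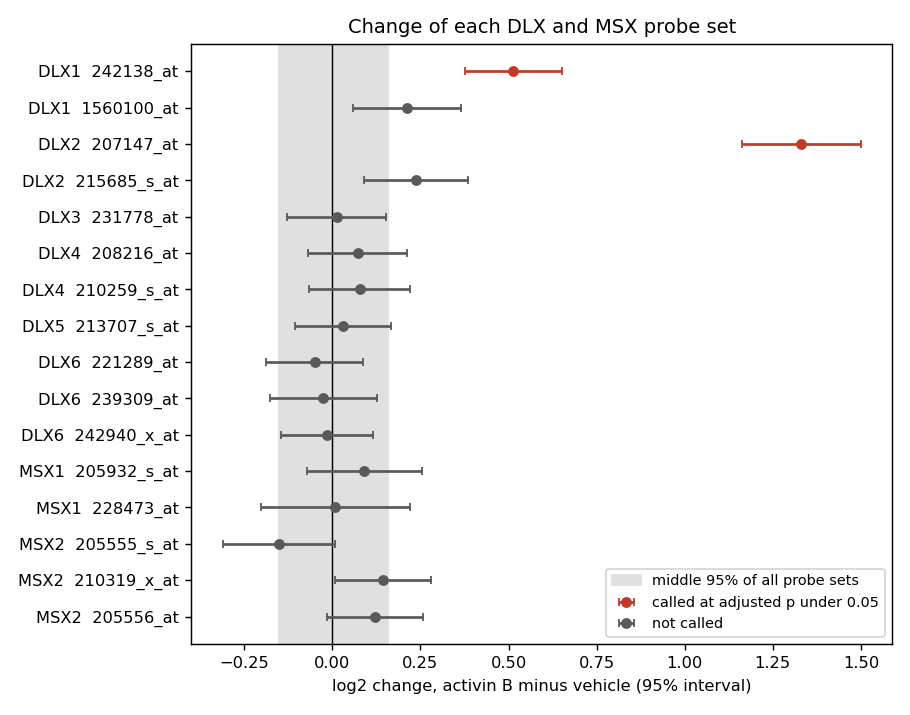
Log2 change, activin B minus vehicle (horizontal axis), of each DLX and MSX probe set (vertical axis), with 95% intervals from limma; red sets were called at an adjusted p under 0.05, and the grey band holds the middle 95% of all probe sets, from -0.15 to 0.16. The 4 sets of DLX1 and DLX2 lie to the right of the band and the other 12 inside it.

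DLX1 and DLX2 are transcribed toward each other from chromosome 2, so each has a promoter of its own. The 250 bases before each start are shown because these are the members that moved, and that of MSX1 because it is the other member with a set clearly above the array medians. Sequences are from RefSeq on GRCh38.p14, at chr2:172085257-172085506 on the plus strand for DLX1, chr2:172102901-172103150 on the minus strand for DLX2 and chr4:4859415-4859664 on the plus strand for MSX1, each 5′ to 3′. Capitals mark the motifs searched on both strands: GGCGCC, a GC-rich element that SMAD1 and SMAD5 bind, its variant GGAGCC, the SMAD box CAGAC, and TAATTG, a core bound by homeodomains.
DLX1: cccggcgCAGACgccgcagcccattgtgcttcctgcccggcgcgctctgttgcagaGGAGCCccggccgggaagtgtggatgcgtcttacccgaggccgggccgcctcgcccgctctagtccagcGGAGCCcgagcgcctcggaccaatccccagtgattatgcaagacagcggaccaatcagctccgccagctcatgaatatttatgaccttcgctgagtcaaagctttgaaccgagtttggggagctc
DLX2: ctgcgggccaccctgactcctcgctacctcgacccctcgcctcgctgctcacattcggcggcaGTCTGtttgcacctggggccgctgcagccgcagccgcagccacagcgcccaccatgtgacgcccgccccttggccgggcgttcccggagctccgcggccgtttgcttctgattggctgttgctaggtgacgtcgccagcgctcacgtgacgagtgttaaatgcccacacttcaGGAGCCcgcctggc
MSX1: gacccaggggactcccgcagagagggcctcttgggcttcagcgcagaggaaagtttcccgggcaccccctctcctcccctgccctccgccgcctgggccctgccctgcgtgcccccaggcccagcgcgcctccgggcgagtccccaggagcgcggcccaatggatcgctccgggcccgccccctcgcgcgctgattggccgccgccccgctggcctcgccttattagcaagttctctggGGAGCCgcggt

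The DLX1 window held GGAGCC at 194 and 125 bases before the start and CAGAC at 243. The DLX2 window held GGAGCC at 14 bases before the start and CAGAC at 187, the latter on the opposite strand, where it reads GTCTG above. MSX1, which was not called, held GGAGCC as well, at 11 bases. These letters are common: of 35116 promoter windows of this length, 30.6% held GGAGCC and 38.0% held CAGAC on either strand. No DLX1, DLX2 or MSX1 window held GGCGCC, found in 16.4% of windows, or TAATTG, found in 6.70%. Among the 5 members with a window, DLX6 alone held GGCGCC, at 189 and 164 bases, and MSX2 held none of the 4 motifs. The 3 printed windows were GC-rich, at 63.6%, 68.0% and 74.0%, against a median of 58.0% over all windows. A match of letters is not a binding site. DLX3, DLX4 and DLX5 had no entry.

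The remaining DLX genes gave dim signals in both groups. Every value of the 7 sets of DLX3, DLX4, DLX5 and DLX6 lay between 6.04 and 6.59 and under the median of its array. Their log2 changes ran from -0.050 to 0.078. Without activin B replicate 3, DLX5 turned from 0.031 to -0.0080, and DLX3 and the dimmer DLX4 set went from 0.013 and 0.078 to 0.042 and 0.12. The intervals allowed a rise of at most 1.17-fold on this scale, but changes can be compressed near background, so a true change could be larger.

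DLX3, which acts in skin, tooth and placenta, read 6.45, 6.35 and 6.35 in vehicle and 6.37, 6.48 and 6.34 in activin B. DLX4, its neighbor, had a log2 change of 0.072 ± 0.066 (SE) in its brighter set, with vehicle arrays at 6.48, 6.39 and 6.35 and activin B arrays at 6.56, 6.45 and 6.43. The second DLX4 set differed from the first by 0.0059 in log2 change. In both genes the groups overlapped.

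DLX5, a bone and limb factor, read 6.53, 6.45 and 6.46 in vehicle and 6.50, 6.45 and 6.59 in activin B. DLX6, its neighbor, was read by 3 sets, whose log2 changes were -0.050, -0.026 and -0.015, and whose groups all overlapped. The brightest of these (221289_at) read 6.56, 6.42 and 6.49 in vehicle and 6.49, 6.43 and 6.40 in activin B. An antisense gene, DLX6-AS1, overlaps DLX6, and the strand that each DLX6 set reads was not checked here. The probe set of DLX6-AS1 was equally dim, with a log2 change of -0.015 ± 0.065 (SE).

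MSX1, a repressor that acts in the palate and tooth germ, had a clear signal and was not called. Its brighter set (205932_s_at) read 8.22, 8.05 and 7.98 in vehicle and 8.28, 8.08 and 8.16 in activin B, so the groups overlapped. The log2 change was 0.09 ± 0.08 (SE), with an interval from 1.05-fold lower to 1.19-fold higher. That interval lay below the interval of the brighter DLX1 set, which began at 1.30-fold. It overlapped that of the dimmer DLX1 set, from 1.04-fold to 1.29-fold, so no difference between MSX1 and DLX1 is given. A second MSX1 set (228473_at) varied most within a group among all members, at 7.05, 6.78 and 6.94 in vehicle and 6.70, 6.95 and 7.15 in activin B. Its log2 change was 0.0090 ± 0.0995 (SE), and -0.10 without activin B replicate 3.

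MSX2, which acts in skull, hair follicle and mammary gland, was read by 3 sets that did not move the same way. The brightest (205555_s_at) read 6.93, 6.77 and 6.70 in vehicle and 6.61, 6.75 and 6.59 in activin B, and its groups overlapped. Its log2 change of -0.15 ± 0.07 (SE) was the most negative of the family. In contrast, the set 210319_x_at read 6.65, 6.61 and 6.54 in vehicle and 6.71, 6.71 and 6.80 in activin B, without overlap. The set 205556_at read 6.22, 6.23 and 6.21 against 6.25, 6.40 and 6.36, also without overlap. Their log2 changes were 0.14 ± 0.06 and 0.12 ± 0.06 (SE). None of the 3 was called, all lay near or under the array medians, and a transcribed pseudogene, MSX2P1, can share probes with MSX2, so no direction is given for this gene.

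**Figure D3:**
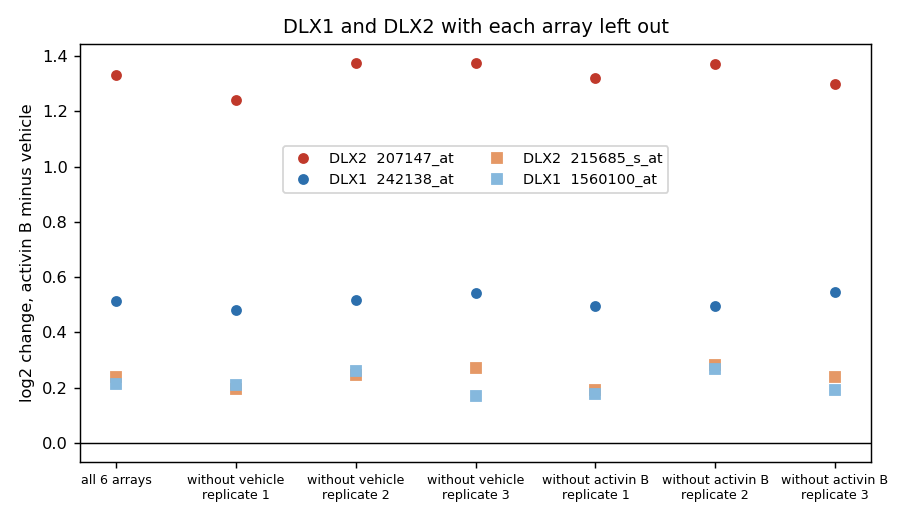
Log2 change, activin B minus vehicle (vertical axis), of the 4 probe sets of DLX1 and DLX2 with all 6 arrays and with each array left out in turn (horizontal axis). The brighter DLX2 set stays between 1.24 and 1.38 and the brighter DLX1 set between 0.48 and 0.55, whichever array is omitted.

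Leaving out any 1 array could not turn DLX1 or DLX2 lower, since the groups of both sets of each gene did not overlap. Only the sizes of the changes are therefore described. The log2 change of the brighter DLX2 set was lowest, 1.24, without vehicle replicate 1, which had the lowest DLX2 signal of all arrays. That of DLX1 was lowest, 0.48, without the same array. Without activin B replicate 3, the array that stood apart, they were 1.30 and 0.55. The dimmer sets ranged from 0.19 to 0.28 for DLX2 and from 0.17 to 0.27 for DLX1. When all sets of a gene were averaged, the changes were 0.78 for DLX2 and 0.36 for DLX1, smaller because the dim sets enter with equal weight.

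The genes that lie beside the family were read to see whether whole regions moved. For each of the 5 loci, 3 protein-coding genes with a probe set on either side were taken, 30 in all. By limma 0 of them were called, against 0.101% of all genes called higher and 0.0910% lower, so a count of 0 is near these shares. None had an unadjusted p under 0.05 by limma, against 621 higher and 544 lower of all 19775 genes. The log2 changes ran from -0.11 to 0.13. Around DLX1 and DLX2 the 6 neighbors, METAP1D, HAT1 and SLC25A12 on one side and ITGA6, PDK1 and MAP3K20 on the other, had log2 changes from -0.11 to 0.017. In all 30 genes the groups overlapped. Of all probe sets, 4.91% had every activin B array above every vehicle array and 4.89% below. With 30 genes, nothing is read from this.

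Related genes were counted with 1 probe set per gene, the brightest, in the same fit. Of 35 measured targets of BMP receptors and SMAD1/5 other than the family, 9 were called higher and 0 lower, against 0.101% and 0.0910% of all genes, and their median log2 change was 0.066 against -0.0017 over all genes. ID3, ID1, ID2 and SMAD9, with log2 changes of 2.85, 2.25, 1.47 and 0.77, had the smallest p values of the list. The list was put together with these results known. The median shows that most of the 35 genes had small changes, like most of the DLX and MSX genes, whose 16 sets had a median of 0.075.

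Genes known to act upstream of, with or under DLX and MSX factors were counted in the same way. Of 32 measured, 0 passed in either direction by limma, against 0.101% of all genes called higher and 0.0910% lower. A count of 0 is near these shares, so nothing is read from it. At an unadjusted p under 0.05, 2 were higher and 1 lower, against 621 and 544 of all 19775 genes. The median log2 change was 0.023. Of the 32, 17 lay above the median signal of all probe sets, against 12644 of all 19775 genes. BMP2, a ligand that induces MSX genes, and LHX8, a homeobox gene of the forebrain and tooth, had the smallest p values among them, with log2 changes of 0.30 and 0.28 (adjusted p = 0.318 and 0.420). LEF1 and FOXC2 followed at -0.18 and 0.18. GAD1 and GAD2, enzymes of GABA synthesis that DLX1 and DLX2 induce in neurons, were dim, with log2 changes of 0.079 and 0.081. Of 24 measured homeobox genes of the same NK-like group, 0 were called by limma, which is near the all-gene shares above. Only 5 of the 24 lay above the median signal of all probe sets, against the same 12644 of all 19775 genes. Most were thus dim, and a change could be missed. NANOG alone had an unadjusted p under 0.05 by limma, and the changes ran from -0.16 for NANOG to 0.11 for VAX2. VENTX and NKX6-2 had log2 changes of -0.11 and 0.10.

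**Figure D4:**
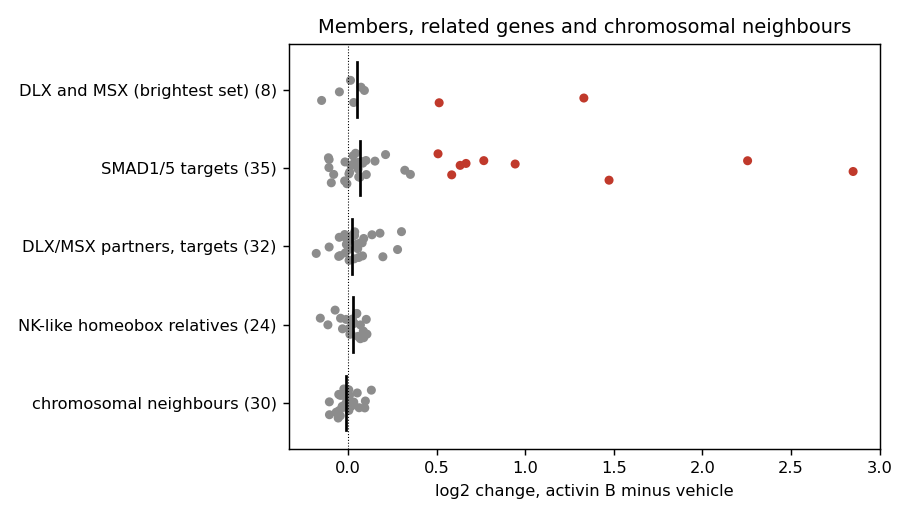
Log2 change, activin B minus vehicle (horizontal axis), of single genes in 5 groups (vertical axis, number of measured genes in brackets), with black bars for group medians and red points for genes called at an adjusted p under 0.05. Called genes are DLX2 and DLX1 among the DLX and MSX genes, and 9 of the 35 SMAD1/5 targets, against 0.101% of all genes called higher. Both of these groups were chosen with these results known.

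The profiles most like those of DLX2 and DLX1 were sought among 19774 other genes. Likeness was the root mean square difference over the 6 arrays between log2 signals, each gene taken relative to its vehicle mean. ID2, an inhibitor of basic helix-loop-helix factors, was nearest to DLX2 at 0.14, followed at a distance by DUSP2, MUC8, SMAD9 and RHOBTB3 at 0.33, 0.34, 0.41 and 0.44. For DLX1 the nearest was DMRTA2, a transcription factor with a zinc-binding DM domain, at 0.046, then ATOH8, BAMBI, ERRFI1 and SMAD7 at 0.065, 0.083, 0.090 and 0.095. The size of the change enters this difference, and the DLX2 rise was the 4th largest of all probe sets. Few genes can lie near so large a change, so nearness is not compared between DLX2 and DLX1. This measure uses the difference between the groups and is a description only.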

How the data were processed

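RNA of 6 SUM-LM1 samples, 50 ng each, had been hybridised to Affymetrix Human Genome U133 Plus 2.0 arrays. Per the study's methods, the authors applied robust multiarray averaging (RMA) in Chipster to the raw files, which equalizes the distributions of the arrays, so a change shared by most transcripts is removed. The deposited values are log2 signals from 5.79 to 14.22. Neither raw files nor scan dates were used, so a scan batch was not tested. The number of arrays limits the precision.

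The 62 array controls were dropped. Names came from the annotation of the platform, and only the 41091 sets with 1 symbol gave names. No set with several symbols included a member. Gene order was taken from a RefSeq table of GRCh38.p14, matched by gene identifier for 41037 sets, and promoters from a RefSeq table with 35116 windows of 27305 genes.

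The activin B and vehicle groups were contrasted with limma 3.58.1 (R 4.3.3) over 54613 probe sets, with Benjamini-Hochberg adjustment and 95% intervals from its moderated errors. All probe sets of a member were described. From each list up to 4 genes with the smallest p were named, and 5 nearest profiles. Tested on 10 simulated sets of 3 against 3 arrays with 54613 probe sets and 200 changed, the test called 31.6% of log2 changes of 0.25 and 99.4% of those of 0.5, and 6.87% of calls were unchanged sets. Simulated noise was independent between arrays, without an outlying array or compression near background. These rates may therefore not hold for the real arrays or for dim sets. Members, lists and tests were chosen with earlier results of these data known. Alternatives were a replicate block, leaving out each array, other normalizations, a filter on dim sets, other priors, array weights and averaging of probe sets. Figures were drawn with matplotlib 3.10.9.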

Additional observations from a re-analysis of the deposited data

How the results depend on the processing

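Under 14 other settings the sets 207147_at of DLX2 and 242138_at of DLX1 were called higher and no other member set was, and with all sets of a gene averaged, a further setting, DLX2 and DLX1 were again the members called. The log2 change ran from 0.78 to 1.38 for DLX2 and from 0.36 to 0.55 for DLX1, both lowest with all sets of a gene averaged, and from 1.24 to 1.38 and 0.48 to 0.55 with 1 array left out. The replicate number as a block left the changes at 1.33 and 0.51 and kept 2 member sets called. It raised the calls over all probe sets from 40 to 53 higher and from 26 to 44 lower. The main fit had no block because the study's methods name a comparison of 2 groups. Deviations of same-numbered arrays correlated at 0.16, 0.041 and 0.19, and each of the 6 arrays correlated best with the array of its own number. Whether the numbers pair the arrays thus stayed unsettled, and the background shares of the calls are those of the fit without a block. Over all probe sets, omitting replicate 2 took the 40 higher calls to 25 (vehicle) or 26 (activin B). The 26 lower calls fell to 10, 7 or 12 on omission of vehicle replicate 1, 2 or 3, and to 13 or 12 on that of activin B replicate 1 or 2, so the background shares of the calls shift with the arrays used. Of 193 recomputed values of the other 14 sets, with gene averages among them, 183 kept their sign. The exceptions lay in DLX3, DLX5, DLX6 and MSX1, and in MSX2 only where its 3 sets were averaged. That average was 0.038, against -0.15 for 205555_s_at, which stayed between -0.20 and -0.084 with 1 array left out. The count of SMAD1/5 targets called higher stayed between 8 and 10, and the counts of 0 called among partners, relatives and neighbors stayed at 0. Signal limits what can be seen of 8 of the 16 sets, which lay under the median of every array.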
